A study of Homo sapiens with 2 samples.

Results

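The genes described here encode the enzymes that build, desaturate and elongate fatty acids, together with SREBF1, a transcription factor that controls them. The 10 members (ACLY, ACACA, FASN, SCD, FADS1, FADS2, ELOVL6, ELOVL5, ELOVL1 and SREBF1) were taken by symbol from a deposited table of 17249 genes, and each had 1 row there. The table held RNA sequencing counts of 2 libraries whose labels name DU145 cells, an epithelial line grown from human prostate cancer. The si-P53RRA library was from cells that, per the labels, received 200 pmol of a small interfering RNA in a Lipofectamine reagent. Its target was P53RRA, a long noncoding RNA that the gene LINC00472 encodes. The medium was replaced after 4 h and the cells were cultured for another 48 h. The sample label of the control library names nothing but the cells, and the heading of its counts, si-NC, is that of a negative control. The labels used here do not say what else the control cells received. Both libraries were labelled as grown in RPMI-1640 with fetal bovine serum.

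Fatty acid synthesis starts from citrate, which ATP citrate lyase cleaves into acetyl-CoA in the cytosol. Acetyl-CoA carboxylase makes malonyl-CoA from it, fatty acid synthase condenses these units into palmitate, and elongases and desaturases turn palmitate and dietary fatty acids into longer and less saturated ones. The precursor protein made from SREBF1 is held in the endoplasmic reticulum by SCAP and INSIG proteins and is cut in the Golgi to release the factor that activates many of these genes. Lipogenic enzymes are known to be active in prostate cancer, and in ferroptosis, the cell death named in the study's title, polyunsaturated fatty acids in membranes are the ones oxidised while monounsaturated ones resist.

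There was 1 library per group, so no test between conditions was possible and no difference has a replicate check. Levels are given in CPM, the counts of a gene relative to the size of its library, with library sizes scaled by the trimmed mean of M-values (TMM). Ranges in parentheses are 95% intervals of the counting error and hold no other error. The si-P53RRA library held 11942362 counts and the control library 16030207. LINC00472 had 6 counts (0.526 CPM) in the si-P53RRA library and 105 counts (6.26 CPM) in the control library. The libraries stood far apart beyond that gene. Genes that reached 1 CPM in at least 1 library, 13532 in all, are called tested genes below, and of these 42.9% differed by at least 2-fold on the log2(CPM + 0.5) scale.

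Marker genes also went different ways in these libraries. The 9 listed epithelial markers summed to 1936 CPM in the si-P53RRA library and 398 CPM in the control library, with EPCAM at 0 in the control library. Most of that gap came from KRT19, with 618 CPM in the si-P53RRA library and 0.477 CPM in the control library, and CLDN4, with 415 CPM in the si-P53RRA library and 2.20 CPM in the control library. CDH1 had 7 counts in the si-P53RRA library and 2 in the control library, and KRT7 went the other way, with 37 counts in the si-P53RRA library and 94 in the control library. KRT18, a keratin of simple epithelia, had 710.4 CPM in the si-P53RRA library and 350 CPM in the control library. The 10 mesenchymal and fibroblast markers summed to 1613 CPM in the si-P53RRA library and 17966 CPM in the control library, and DCN, THY1 and TGFBI were at 0 in the si-P53RRA library. HOXB13, a homeobox gene of the prostate, had 10004 counts in the si-P53RRA library and 0 in the control library. Hepatocyte markers summed to 5.96 CPM in the si-P53RRA library and 0 in the control library, and leukocyte markers to 79.7 CPM in the si-P53RRA library and 40.6 CPM in the control library, most of it from CD68. Whether both libraries hold the same cells cannot be told from 1 library each, and the part of these marker differences in the values that follow was not tested. In bulk RNA, fewer cells of a type and less RNA per cell cannot be told apart.

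Of the 10 members, 8 were lower in the si-P53RRA library than in the control library and 2, ELOVL1 and SREBF1, were higher. Below the control level were also 51.9% of all tested genes, and 45.6% of the 5325 genes at least as abundant as ELOVL6, the least abundant member. Only ELOVL6 was at least 2-fold lower, 1 of 10 members, where 23.2% of all tested genes and 16.5% of those at least as abundant as ELOVL6 were that much lower. That call ended when log2 changes were corrected for the GC content and length of transcripts, where ELOVL6 was at −0.95 and FASN, at −1.02, was the only member called. Scaling on total counts called 3 members, ELOVL6, SCD and ACLY. No member was at least 2-fold higher, against 19.7% of all tested genes. The median log2 change of the members was −0.59, against −0.06 for all tested genes, and their log2 changes ran from −1.30 to 0.31. Between the quartiles of all tested genes, −0.91 and 0.74, lay 8 of the 10 members. ELOVL6 and SCD were the 2 below the lower quartile. The differences of the members were thus of a moderate size for these 2 libraries.

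**Figure D1:**
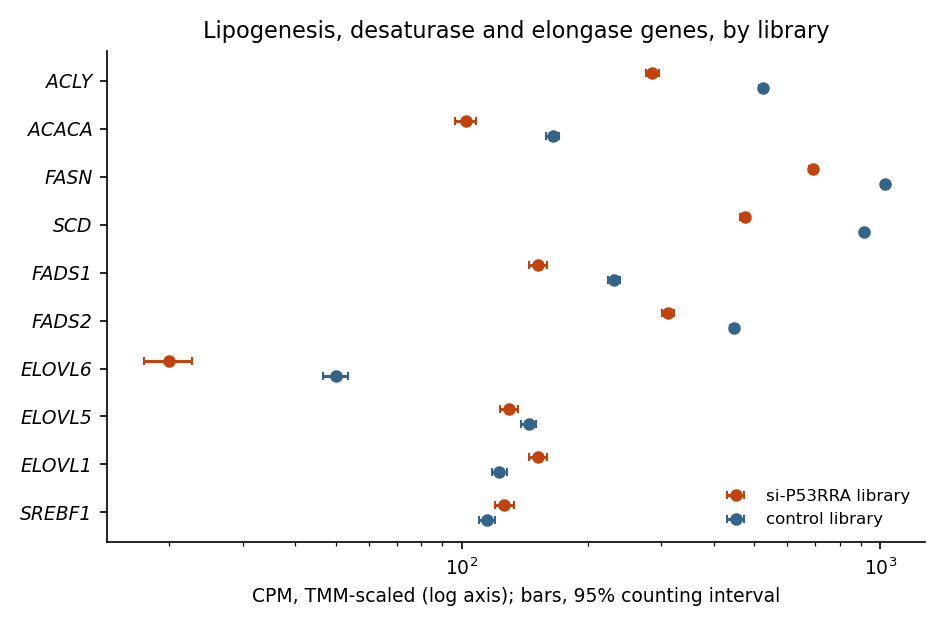
Level of each member in the si-P53RRA library (red) and the control library (blue), in TMM-scaled CPM on a log axis; points are single libraries and bars are 95% counting intervals. All members but ELOVL1 and SREBF1 lie further left in the si-P53RRA library, and ELOVL6 has the widest gap, with 20.0 CPM there and 50.1 CPM in the control library.

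**Figure D2:**
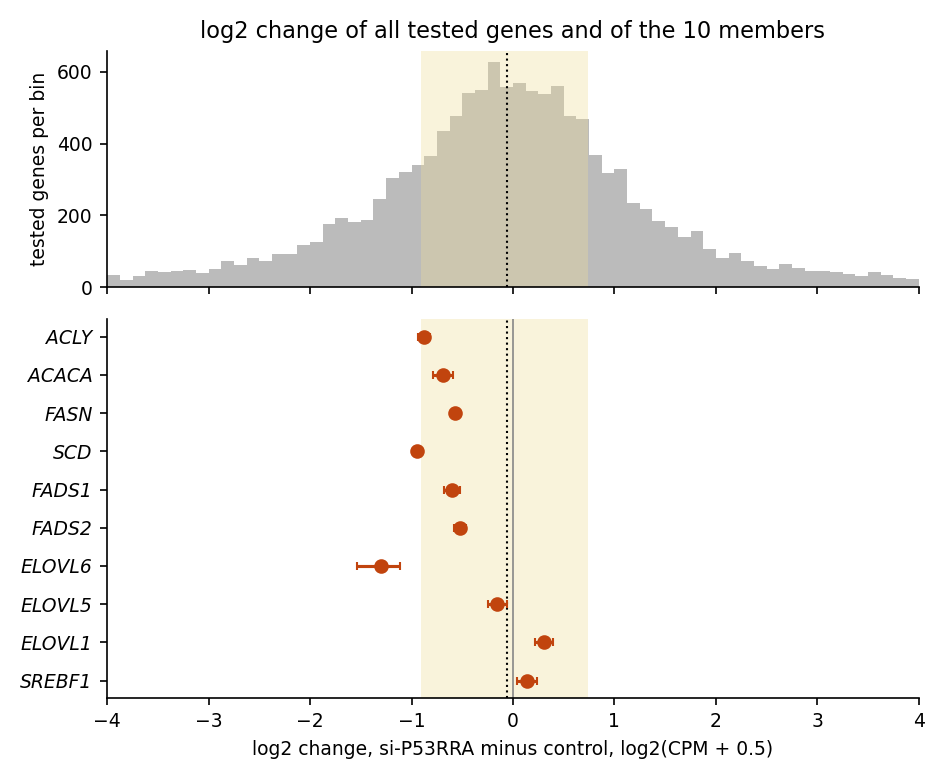
Upper panel, the number of tested genes by log2 change, with 778 genes beyond the plotted limit of 4 not drawn; lower panel, the log2 change of each member (points) with 95% counting intervals (bars). The dotted line is the median of all tested genes (−0.06) and the shaded band spans their quartiles (−0.91 to 0.74); 8 of 10 members lie in the band.

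The genes of palmitate synthesis were all lower in the si-P53RRA library. ACLY, the citrate lyase that supplies cytosolic acetyl-CoA, had 3260 counts (286 CPM) in the si-P53RRA library and 8809 counts (525 CPM) in the control library, 1.84-fold lower (1.76 to 1.91). ACACA, the carboxylase that makes malonyl-CoA, had 1167 counts (102 CPM) in the si-P53RRA library and 2769 counts (165 CPM) in the control library, 1.61-fold lower (1.51 to 1.73). FASN, the multi-enzyme synthase of palmitate, had 7872 counts (690.0 CPM) in the si-P53RRA library and 17216 counts (1026 CPM) in the control library, 1.49-fold lower (1.45 to 1.53). Their counting intervals did not overlap between the libraries for any of these 3 genes. Steps of this size were common among all genes: 25.7% of tested genes were at least as low as ACLY and 33.1% at least as low as FASN. The ratio of ACACA to FASN counts, which library scaling does not touch, was 0.148 in the si-P53RRA library and 0.161 in the control library, or 0.922 times (0.856 to 0.992), an order of the genes that also turned round with that correction.

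SCD, the stearoyl-CoA desaturase that makes the monounsaturated oleate and palmitoleate, had 5410 counts (474 CPM) in the si-P53RRA library and 15308 counts (912 CPM) in the control library. It was 1.92-fold lower (1.86 to 1.98), just short of the 2-fold line, and 24.3% of tested genes were at least as low. Relative to FASN counts, SCD counts were 0.687 in the si-P53RRA library and 0.889 in the control library, 1.29-fold lower (1.24 to 1.35). Relative to ACLY they were 1.66 in the si-P53RRA library and 1.74 in the control library, and the interval of that ratio of ratios, 0.907 to 1.01, held 1. By these ratios SCD lay further below its control level than FASN did, an order that turned round with the correction for GC and length described further on, and it could not be told from ACLY by counting error. SCD5, the other human stearoyl-CoA desaturase, had 144 counts (12.6 CPM) in the si-P53RRA library and 340 counts (20.3 CPM) in the control library, 1.61-fold lower (1.32 to 1.96). The SCD to SCD5 ratio was 37.6 in the si-P53RRA library and 45.0 in the control library, with an interval of 0.683 to 1.02 for the change.

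FADS1 and FADS2, the front-end desaturases of polyunsaturated fatty acids that lie next to each other on chromosome 11, were lower by nearly the same factor. FADS2, which takes the first desaturation step of the essential fatty acids, had 3553 counts (311 CPM) in the si-P53RRA library and 7497 counts (447 CPM) in the control library, 1.43-fold lower (1.38 to 1.49). FADS1, which acts later and yields arachidonate and eicosapentaenoate, had 1738 counts (152 CPM) in the si-P53RRA library and 3881 counts (231 CPM) in the control library, 1.52-fold lower (1.43 to 1.61). Their count ratio, FADS1 over FADS2, was 0.489 in the si-P53RRA library and 0.518 in the control library, and the interval of the change, 0.881 to 1.01, held 1. In GENCODE 29 these genes overlap on opposite strands and FADS2 also overlaps FEN1, a DNA repair nuclease gene. The sources used here do not say whether counting used strand, so reads in the overlaps cannot be assigned with certainty. FEN1 itself was 1.08-fold lower (1.02 to 1.14).

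Most neighbours of this desaturase pair lay on the other side of the control level. FADS3, the third gene of the cluster, had 707 counts (62.0 CPM) in the si-P53RRA library and 694 counts (41.4 CPM) in the control library, with a log2 change of 0.58. Relative to FADS2 its counts were 0.199 in the si-P53RRA library and 0.0926 in the control library, 2.15 times as high (1.92 to 2.41). MYRF, a membrane-bound transcription factor known from myelination, had 389 counts (34.1 CPM) in the si-P53RRA library and 102 counts (6.08 CPM) in the control library, and was 5.61-fold higher (4.50 to 7.05). DAGLA, a diacylglycerol lipase, was 2.16-fold higher (1.85 to 2.53). Of the 6 tested genes listed around FADS1 and FADS2, 2 were at least 2-fold higher and none was at least 2-fold lower, beside 19.7% and 23.2% of all tested genes. Above the control level were 5 of the 6, beside 48.1% of all tested genes.

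Of the elongases, the 3 members went different ways. ELOVL6, which lengthens palmitate to stearate, had 228 counts (20.0 CPM) in the si-P53RRA library and 840 counts (50.1 CPM) in the control library, so that it stood at 39.9% of its control level (34.3 to 46.3). ELOVL5, which lengthens polyunsaturated acyl chains, had 1483 counts (130.0 CPM) in the si-P53RRA library and 2426 counts (145 CPM) in the control library, 1.11-fold lower (1.04 to 1.19). ELOVL1, which makes very long saturated and monounsaturated chains for sphingolipids, had 1738 counts (152 CPM) in the si-P53RRA library and 2067 counts (123 CPM) in the control library, 1.24-fold higher (1.16 to 1.32). With that same correction, ELOVL5 and ELOVL1 changed sign and lay near 0. The count ratio of ELOVL6 to ELOVL1 was 0.131 in the si-P53RRA library and 0.406 in the control library, 3.10-fold lower (2.64 to 3.65), or 1.91-fold with the correction. ELOVL6 over ELOVL5 was 0.154 in the si-P53RRA library and 0.346 in the control library, 2.25-fold lower (1.92 to 2.65), or 1.95-fold with the correction.

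Summed over the 7 human elongase genes as counts per kb of the longest transcript, ELOVL1 gave 66.6% in the si-P53RRA library and 55.4% in the control library. ELOVL5 gave 30.0% in the si-P53RRA library and 34.3% in the control library, and ELOVL6 gave 2.20% in the si-P53RRA library and 5.67% in the control library. These shares rest on the chosen lengths. The longest ELOVL6 transcript has 6454 bases and the median length is 591, while ELOVL1 has 1625 and 848.5. Shares by median length were not computed and may differ much. The remaining elongases were scarce in both libraries and mostly lower in the si-P53RRA library. ELOVL4, an elongase of very long chains known from retina and skin, had 39 counts in the si-P53RRA library and 215 in the control library, 3.75-fold lower (2.66 to 5.42). ELOVL2, an elongase of long polyunsaturated chains, had 18 counts in the si-P53RRA library and 84 in the control library, 3.17-fold lower (1.89 to 5.61). ELOVL7 had 1 count in the si-P53RRA library and 60 in the control library, 40.8-fold lower (7.05 to 1638). ELOVL3 had 2 counts in each library, too few for a comparison. In all, 3 of 6 tested genes of the other elongases and desaturases were at least 2-fold lower and none was at least 2-fold higher, beside 23.2% and 19.7% of all tested genes. Of these, ELOVL7 passed the limit of 1 CPM only through the control library, so its direction was fixed by the filter.

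SREBF1, the regulator in the list, had 1444 counts (127 CPM) in the si-P53RRA library and 1930 counts (115 CPM) in the control library, 1.10-fold higher (1.03 to 1.18). That difference vanished on total counts, where its log2 change was 0.01, and changed sign to −0.17 with the correction for GC and length. Enzyme members that SREBP factors are known to activate, such as FASN and SCD, were thus lower beside a nearly level SREBF1 RNA. That direction did not hold for lipogenesis genes at large. Of 59 tested ones outside the members, 30 were above the control level and 29 below, beside 48.1% and 51.9% of all tested genes. FASN over SREBF1 counts was 5.45 in the si-P53RRA library and 8.92 in the control library, 1.64-fold lower (1.52 to 1.76), and SCD over SREBF1 was 3.75 in the si-P53RRA library and 7.93 in the control library, 2.12-fold lower (1.96 to 2.28). With the correction for GC and length, FASN over SREBF1 was 1.81-fold lower and SCD over SREBF1 1.59-fold lower. RNA counts do not measure how much of the SREBP precursor was cut. SREBF1 overlaps RAI1 on the opposite strand in GENCODE 29, and RAI1 had 1095 counts in the si-P53RRA library and 1092 in the control library.

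The sister gene SREBF2, which mainly drives sterol genes, was lower in the si-P53RRA library. It had 1597 counts (140.0 CPM) in the si-P53RRA library and 5298 counts (316 CPM) in the control library, 2.26-fold lower (2.13 to 2.39). The SREBF1 to SREBF2 count ratio was 0.904 in the si-P53RRA library and 0.364 in the control library, 2.48 times as high (2.27 to 2.71). The difference of their log2 changes was 1.31, and 1.06 with the correction for GC and length. INSIG1, which retains SREBP precursors and is itself known as an SREBP target, had 466 counts (40.8 CPM) in the si-P53RRA library and 3238 counts (193 CPM) in the control library, 4.72-fold lower (4.29 to 5.22). PAQR3, a Golgi anchor of the SCAP complex, was 2.37-fold lower (1.90 to 2.98). Of 12 tested genes of SREBP control, 3 were at least 2-fold lower and none was at least 2-fold higher, beside 23.2% and 19.7% of all tested genes, and the share of lower genes was near that of all genes.

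Because longer transcripts give more reads, the levels of different members were set side by side per kb of the longest GENCODE 29 transcript. On this scale SCD was the most abundant member in the control library, with 170.1 CPM per kb, but not in the si-P53RRA library. There ELOVL1, at 93.7 CPM per kb, stood beside SCD at 88.4, and the counting intervals of these levels overlapped. In the control library ELOVL1 stood in place 5 at 75.8 CPM per kb. FASN followed in place 3 in both libraries, with 80.6 CPM per kb in the si-P53RRA library and 119.8 in the control library, where it did not differ from ACLY (121.0) beyond counting error. ELOVL6 was last in both, with 3.10 CPM per kb in the si-P53RRA library and 7.76 in the control library. ACACA stood just above it, at 10.3 CPM per kb in the si-P53RRA library and 16.6 in the control library. All other neighbours in either order had intervals that did not overlap. This order rests on the chosen lengths: with the median transcript length of each gene, 2 of the 10 members kept their place in the si-P53RRA library.

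**Figure D3:**
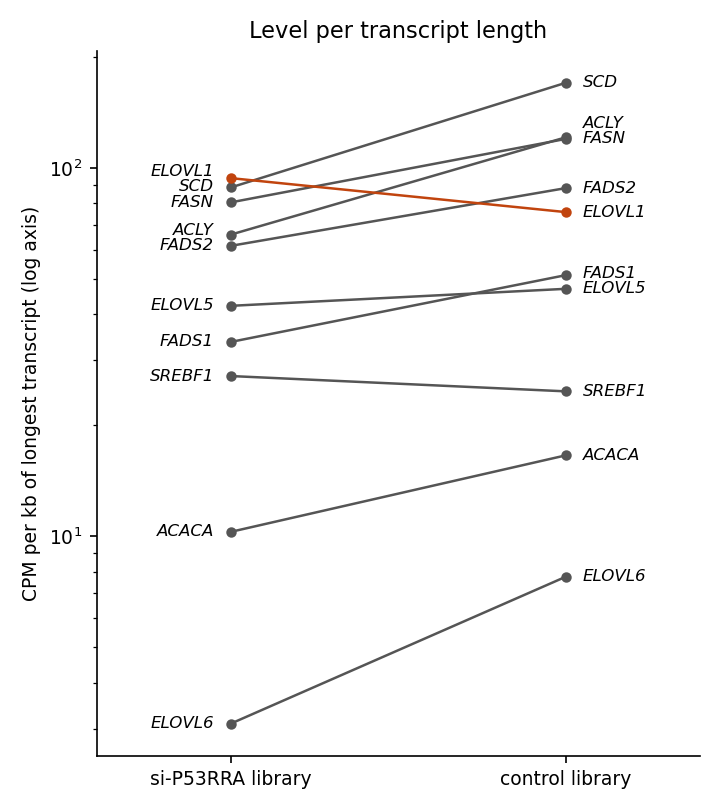
Level of each member in CPM per kb of its longest transcript (log axis), in the si-P53RRA library on the left and the control library on the right, 1 line per gene. ELOVL1, in red, is in place 1 on the left (93.7) and place 5 on the right (75.8).

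Together the 10 members held 27893 counts in the si-P53RRA library, 0.234% of its total (0.231 to 0.236, exact binomial interval), and 62743 counts in the control library, 0.391% of its total (0.388 to 0.394). In CPM the sum was 1.53-fold lower in the si-P53RRA library (1.51 to 1.55). Within that sum, SCD made up 19.4% in the si-P53RRA library and 24.4% in the control library. ELOVL1 made up 6.23% in the si-P53RRA library and 3.29% in the control library.

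Promoter sequences of the RefSeq annotation (GRCh38.p14) were read for motifs, since most enzyme members were lower together. The table held promoters for 9 members, all but FASN, at 13 starts, and the window was the 250 bases before each start. The motifs were TCACNCCAC for the sterol regulatory element, CACGTG for an E-box, CCAAT for the NF-Y box and GGGCGG for the GC box, each on both strands. GC boxes may overlap one another. The windows of ACLY overlap and share CCAAT and GGGCGG sites, which are counted in each, and those of FADS2 overlap too. No member window held TCACNCCAC, which was in 0.883% of all 35116 windows. CCAAT was in 7 of 13 windows, belonging to 5 members, against 32.0% of all windows. GGGCGG was in 10 of 13 windows, of 8 members, against 42.6%, and CACGTG was in 1, that of ELOVL5, against 6.34%. These matches describe the letters only. The 4 windows below are those of the members furthest below and above the control level, ELOVL6, SCD and ELOVL1, and of the only member with CACGTG. They run 5′ to 3′ on the strand of the gene and end at the base before the start, and capitals mark CCAAT or its reverse complement and CACGTG.
ELOVL6, GRCh38.p14 chr4:110198616-110198865, minus strand: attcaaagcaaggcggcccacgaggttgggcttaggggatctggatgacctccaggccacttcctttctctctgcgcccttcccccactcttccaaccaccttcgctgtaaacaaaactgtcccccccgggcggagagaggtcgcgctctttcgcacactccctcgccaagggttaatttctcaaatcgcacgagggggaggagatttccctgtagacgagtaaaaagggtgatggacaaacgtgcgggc
SCD, GRCh38.p14 chr10:100346983-100347232, plus strand: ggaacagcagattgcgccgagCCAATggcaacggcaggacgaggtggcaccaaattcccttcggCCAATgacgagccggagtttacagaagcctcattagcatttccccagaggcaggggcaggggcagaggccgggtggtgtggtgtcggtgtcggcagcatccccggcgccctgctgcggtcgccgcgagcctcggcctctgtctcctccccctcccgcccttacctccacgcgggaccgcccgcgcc
ELOVL1, GRCh38.p14 chr1:43368012-43368261, minus strand: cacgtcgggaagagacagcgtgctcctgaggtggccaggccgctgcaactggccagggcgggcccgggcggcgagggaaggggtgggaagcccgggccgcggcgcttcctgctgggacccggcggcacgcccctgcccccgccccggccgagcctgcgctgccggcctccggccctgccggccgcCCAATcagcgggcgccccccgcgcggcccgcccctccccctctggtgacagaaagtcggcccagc
ELOVL5, GRCh38.p14 chr6:53348951-53349200, minus strand: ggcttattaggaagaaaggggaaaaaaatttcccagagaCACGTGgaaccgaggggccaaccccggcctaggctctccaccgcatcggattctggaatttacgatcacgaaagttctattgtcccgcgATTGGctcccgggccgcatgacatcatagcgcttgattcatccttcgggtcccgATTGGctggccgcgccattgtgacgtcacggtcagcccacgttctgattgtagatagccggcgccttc
ELOVL6 had neither of the marked motifs in this window, while SCD and ELOVL1 both had CCAAT. ELOVL6, SCD and ELOVL1 were chosen by their log2 changes without the correction for GC and length, with which FASN was the lowest and ELOVL5 the highest.

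Other genes of fatty acid metabolism were listed by role. Of 59 tested genes that supply, partner, regulate or use the members' products, 9 were higher by 2-fold or more and 11 lower by as much, beside 19.7% and 23.2% of all tested genes, and their median log2 change was 0.04. Among these calls, LPIN3 passed the limit of 1 CPM only through the si-P53RRA library. ELOVL7, HACD4 and PNPLA3 passed it only through the control library. The direction of these genes was thus fixed by the filter. Genes that supply or control acetyl-CoA, malonyl-CoA and NADPH mostly lay above the control level, 13 of 17, beside 48.1% of all tested genes. Of these 17, 3 were higher by 2-fold or more, beside 19.7% of all tested genes. Citrate synthase, CS, had 7186 counts (630 CPM) in the si-P53RRA library and 4670 counts (278 CPM) in the control library, 2.26-fold higher (2.18 to 2.35). MID1IP1, known to promote the assembly of acetyl-CoA carboxylase, was 2.45-fold higher (2.29 to 2.63). MLYCD, the decarboxylase that breaks malonyl-CoA down, had 299 counts (26.2 CPM) in the si-P53RRA library and 104 counts in the control library and was 4.23-fold higher (3.37 to 5.34).

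Partners of the elongases and desaturases were split. TECR, the reductase that ends each elongation cycle, had 3478 counts (305 CPM) in the si-P53RRA library and 2450 counts (146 CPM) in the control library, 2.09-fold higher (1.98 to 2.20). CYB5R3, among the electron donors of the list, had 5133 counts (450 CPM) in the si-P53RRA library and 3679 counts (219 CPM) in the control library. It was 2.05-fold higher (1.97 to 2.14). CYB5A, a cytochrome b5 that passes electrons to desaturases, had 15 counts in the si-P53RRA library and 393 in the control library, 17.8-fold lower (10.7 to 32.1). Its relative CYB5B had 1806 counts (158 CPM) in the si-P53RRA library and 2575 counts (153 CPM) in the control library. CYB5R4, an oxidoreductase with a cytochrome b5 domain, was 2.14-fold lower (1.75 to 2.62), and the dehydratase HACD4 had 0 counts in the si-P53RRA library and 91 in the control library, at least 20.6-fold lower against 3 counts. Of 11 tested genes, 2 were 2-fold or more higher and 3 were as far below the control level, near the 19.7% and 23.2% of all tested genes. HACD4 passed the limit of 1 CPM only through the control library, so its direction was fixed by the filter.

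Glycerolipid genes, whose products build and break down membrane and storage lipid, held the largest log2 changes of the 8 related lists. DGAT1, an enzyme of the last step of triacylglycerol synthesis, had 5042 counts (442 CPM) in the si-P53RRA library and 335 counts (20.0 CPM) in the control library, 22.1-fold higher (19.8 to 24.8). DGAT2, an unrelated enzyme of the same step, had 418 counts (36.6 CPM) in the si-P53RRA library and 30 counts (1.79 CPM) in the control library, 20.5-fold higher (14.1 to 30.8). LPIN3, a phosphatidate phosphatase, had 63 counts in the si-P53RRA library and 2 in the control library and was 46.3-fold higher (12.3 to 391). PNPLA3, a lipid droplet hydrolase gene known as an SREBP target, had 0 counts in the si-P53RRA library and 79 in the control library, at least 17.9-fold lower against 3 counts. Of 13 tested genes, 4 were 2-fold or more higher and 2 were as far below the control level, beside 19.7% and 23.2% of all tested genes. LPIN3 and PNPLA3 each passed the limit of 1 CPM only through the library where they were higher, so their direction was fixed by the filter.

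Fatty acid oxidation had 15 of 18 tested genes above the control level, with 8 higher by 2-fold or more and 1 lower by as much, and a median log2 change of 0.69. Among all tested genes, 48.1% were above the control level, 19.7% higher by 2-fold or more and 23.2% lower by as much. CPT1A, which admits long acyl chains to mitochondria and is inhibited by malonyl-CoA, had 2728 counts (239 CPM) in the si-P53RRA library and 1019 counts (60.7 CPM) in the control library, 3.94-fold higher (3.66 to 4.24). EHHADH, a peroxisomal enzyme, was 4.59-fold higher (3.31 to 6.47) and DECR1, needed to oxidise polyunsaturated chains, 2.81-fold higher (2.47 to 3.20). CPT1C, the form known from neurons, was 3.40-fold lower (1.76 to 7.20). The separate mitochondrial route of fatty acid synthesis, which makes lipoate precursors, had 2 of 6 genes higher by 2-fold or more and 1 lower by as much. MECR was 2.25-fold higher (1.96 to 2.57), OXSM 2.25-fold higher (1.90 to 2.67), and HSD17B8 had 1 count in the si-P53RRA library and 23 in the control library, 15.6-fold lower (2.54 to 644). CPT1C and HSD17B8 passed the limit of 1 CPM only through the control library, so their direction was fixed by the filter.

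**Figure D4:**
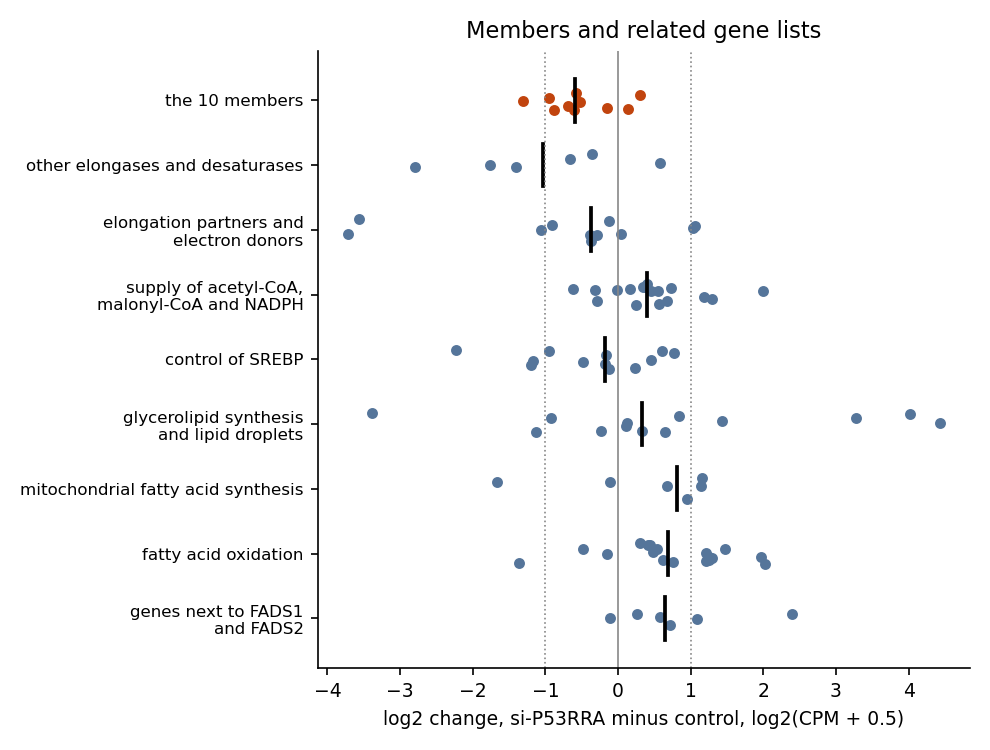
Log2 change of every tested gene (points) in the 10 members (red) and 8 related lists (blue), with list medians as black bars and dotted lines at 2-fold; FADS3 is in 2 lists. The median of the members is −0.59, that of fatty acid oxidation 0.69.

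The members differ widely in transcript composition, from 41.2% GC for ELOVL6 to 65.3% for FASN, and the log2 changes of all genes varied with GC content and length. A cubic surface fitted over 12807 tested genes removed these trends. The correction moved the members by between −0.45 and 0.36. FASN moved to −1.02 and ELOVL6 to −0.95, so that FASN took the place of ELOVL6 as the only member at least 2-fold lower. ELOVL5 moved to 0.02, ELOVL1 to −0.01 and SREBF1 to −0.17, so the signs of these 3 depend on the correction, while ACLY, ACACA, FASN, SCD, FADS1, FADS2 and ELOVL6 were below 0 under each of the settings tried. The median of the members was −0.61 after the correction.

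**Figure D5:**
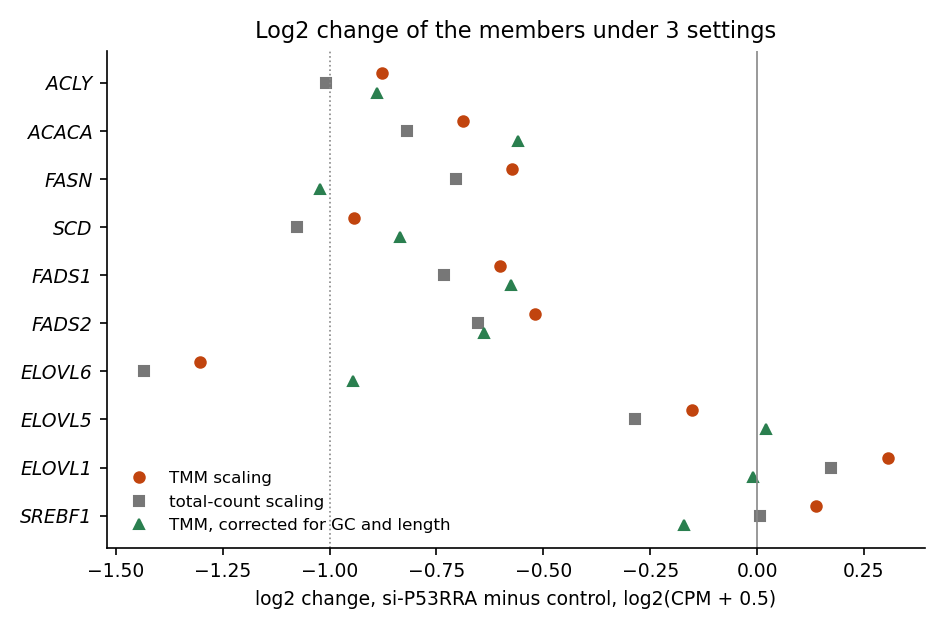
Log2 change of each member with TMM scaling (red circles), total-count scaling (grey squares) and TMM scaling with correction for GC content and length (green triangles); the dotted line marks 2-fold lower. For 7 members every point lies left of 0, and for ELOVL5, ELOVL1 and SREBF1 the triangle lies on the other side of 0 from the circle.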

How the data were processed

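The measurement was sequencing of poly(A)-selected RNA, fragmented and primed with random hexamers, per the labels' protocols. The deposited values were whole-number counts per gene, not normalized, as their differing totals show. Reads were mapped to hg19, per the submitters' processing notes; the aligner, counting program, annotation and strand setting: not given in the sources used here. Groups came from the sample titles, and the column headed si-NC served as the control.

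Library sizes were scaled by TMM on all genes (edgeR 4.0.16, R 4.3.3), and the factors were 0.955 for si-P53RRA and 1.05 for control. The log2 change was taken on log2(CPM + 0.5) for genes that reached 1 CPM in at least 1 library. With 1 library per group there was no dispersion, SE or p-value to compute. Folds with an interval are plain CPM ratios. Counts had exact Poisson 95% intervals, ratios between libraries exact binomial ones, and ratios of count ratios exact conditional ones (SciPy 1.17.1). A fold against 0 counts is a bound against 3 counts in that library. PCR copies were not marked by molecular identifiers, so intervals cover counting error only. The scaling and intervals were tested on simulated data with counting noise only and a small set of changed genes. In the real libraries 42.9% of tested genes differed by at least 2-fold, a case that the simulation did not cover.

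All members were named; from each related list, up to 4 genes with the largest log2 changes among those of 2-fold or more. Members and lists were chosen with earlier results of these data known, and a few further genes (SCD5, FADS3, FEN1, RAI1, CYB5B) were chosen for their relation to a member. CYB5R3 was added as the other gene of its list that was at least 2-fold higher. Some genes of the marker lists are not reported here. Other settings tried were scaling by total counts, upper quartile and median ratio (DESeq2 1.42.0), pseudocounts of 0.1 and 2.5 CPM, no filter or at least 5 CPM, folds of 1.5 and 3, an interval that leaves out 1, and a correction by a fitted cubic in the GC content and log length of each gene's longest GENCODE 29 transcript, for the 94.6% of tested genes with one. GENCODE 29 is of a newer build than hg19, so it gave lengths and overlaps only.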

Additional observations from a re-analysis of the deposited data

How the results depend on the processing

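Upper-quartile and median-ratio scaling and pseudocounts of 0.1 and 2.5 CPM moved all 10 members by less than their counting error. Total-count scaling lowered every member by about 0.13 and the median of all tested genes to −0.18; the median of the members became −0.72, and 3 of 10 members (ELOVL6, SCD and ACLY) were at least 2-fold lower, beside 25.6% of all tested genes. Corrected for GC and length, ELOVL5 (0.0212), ELOVL1 (−0.0096) and SREBF1 (−0.17) reversed; the cause was not tested. At a fold of 1.5, 5 of 10 members were lower, beside 32.7% of all tested genes. Of the 59 related genes, 15 were higher and 16 lower, beside 29.2% and 32.7% of all tested genes. At a fold of 3, 0 of 10 members were lower, and of the 59 related genes 4 were higher and 6 lower. Over all tested genes, 1587 (11.7%) were higher and 1964 (14.5%) lower. Among the 5325 genes at least as abundant as ELOVL6, a limit chosen after seeing the data, 1048 (19.7%) were higher by 2-fold or more and 879 (16.5%) lower. By median transcript lengths, 2 of 10 members kept their place by level per kb. The coding-length order was not run. The least abundant member, ELOVL6, rests on 228 counts in the si-P53RRA library. No paired analysis was possible because each group has 1 library, and for the same reason no library could be left out.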

Other observations

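Some genes of stored fat outside the lists of related genes also stood apart between these libraries. Of 7 adipocyte markers, ADIPOQ, LEP and LPL had no row and 3 were tested. All 3 were at least 2-fold higher in the si-P53RRA library, beside 19.7% of all tested genes. CIDEC and FABP4 passed the limit of 1 CPM only through that library, so their direction was fixed by the filter. The markers with a row summed to 56.7 CPM in the si-P53RRA library and 2.15 CPM in the control library. CIDEC, which fuses lipid droplets, had 172 counts (15.1 CPM) in the si-P53RRA library and 0 in the control library, at least 84.3-fold higher against 3 counts. FABP4, a fatty acid binding protein of fat cells and endothelium, had 138 counts (12.1 CPM) in the si-P53RRA library and 1 in the control library. PLIN4, a droplet coat protein, had 333 counts (29.2 CPM) in the si-P53RRA library and 34 counts (2.03 CPM) in the control library, 14.4-fold higher (10.1 to 21.2). PLIN1, the coat protein that defines mature fat cells, had 4 counts in the si-P53RRA library and 1 in the control library. PLIN2, the droplet coat of most cell types, is in the glycerolipid list. It had 127.7 CPM in the si-P53RRA library and 150.7 CPM in the control library, 1.18-fold lower (1.11 to 1.26).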
